A study of Homo sapiens with 30 samples.

Results

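RNA levels of 10 genes of the endoplasmic reticulum stress response were followed in lineages derived from MDA-MB-231, an established human cell line from a triple-negative breast cancer. The genes were chosen by name, with earlier results of these data known. They were HSPA5, HSP90B1, DNAJB9, XBP1, HERPUD1, SDF2L1, PDIA4, CRELD2, ERN1 and SEL1L, which are 10 of the 26475 genes listed in each count table. All 10 passed the filter on low counts in both tables. The 30 libraries form 10 groups of 3, and every sample is labelled wild type and set apart by its lineage, with no drug or gene edit named in the labels. Lineages 22, 35 and 45 were each measured in isolation, which means grown alone for about 24 h, and again after sorting out of a co-culture of 6 members kept for 15 days. A second table holds lineages 03, 10 and 13 and a group labelled Pop, all in isolation, and the labels do not say what Pop is. All cells grew in RPMI-1640 with 10% dialyzed serum and 2 mM glutamine. The series title speaks of cooperation between clones through soluble metabolites, so the co-culture comparison asks how a lineage's RNA differs when it has lived beside others.

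The endoplasmic reticulum folds secreted and membrane proteins, and when unfolded protein builds up there, a set of sensors in its membrane starts the unfolded protein response. One sensor is the kinase and nuclease IRE1alpha, encoded by ERN1, which cuts XBP1 mRNA so that it encodes an active transcription factor, and the sensors ATF6 and PERK act beside it. The response raises chaperones such as BiP (HSPA5) and GRP94 (HSP90B1), disulfide isomerases such as PDIA4, and the degradation machinery of HERPUD1 and SEL1L, which returns misfolded protein to the cytosol. DNAJB9 and SDF2L1 are co-chaperones of BiP, and CRELD2 is a stress-induced protein of the secretory pathway. Counts per gene do not separate the cut from the uncut XBP1 mRNA, so the values below give the total RNA of that gene only.

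Many genes of this response carry a short promoter element that binds ATF6 together with the CCAAT factor NF-Y, named the endoplasmic reticulum stress response element (ERSE). The promoter windows of RefSeq (build GRCh38.p14, 250 bases before to 50 after each start site) were searched on both strands for its exact letters, CCAAT and CCACG set 9 bases apart, and for the related ERSE-II, ATTGG and CCACG set 1 base apart. Of the 10 genes, 4 had an exact ERSE (HSPA5, HSP90B1, XBP1 and CRELD2) and 2 an exact ERSE-II (HERPUD1 and SDF2L1). In all 35116 windows the shares were 0.0769% (27 windows) and 0.0541% (19 windows). These 6 sequences are shown because most of the genes held either motif, and the capitals mark the matches. Each is written 5′ to 3′ in the sense of its gene and lies before the RefSeq start site. In GENCODE v29, HSP90B1 and CRELD2 start further upstream, at 103930107 and 49918167, so their stretches lie inside the annotated gene. The last 6 bases of HSP90B1 fall in an annotated untranslated region there.
HSPA5 (chr9:125241351-125241449, minus strand): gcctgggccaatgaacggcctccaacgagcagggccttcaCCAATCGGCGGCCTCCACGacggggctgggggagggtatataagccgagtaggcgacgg
HSP90B1 (chr12:103930176-103930339, plus strand): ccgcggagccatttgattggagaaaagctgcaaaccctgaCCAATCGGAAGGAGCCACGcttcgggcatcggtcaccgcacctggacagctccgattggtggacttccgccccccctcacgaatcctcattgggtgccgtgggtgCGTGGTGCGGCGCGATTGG
XBP1 (chr22:28800598-28800661, minus strand): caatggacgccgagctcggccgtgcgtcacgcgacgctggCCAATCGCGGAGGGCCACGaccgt
CRELD2 (chr22:49918514-49918612, plus strand): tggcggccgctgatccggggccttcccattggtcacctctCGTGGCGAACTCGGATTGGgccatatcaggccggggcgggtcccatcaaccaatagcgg
HERPUD1 (chr16:56931985-56932047, plus strand): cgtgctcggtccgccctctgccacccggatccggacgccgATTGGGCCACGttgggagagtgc
SDF2L1 (chr22:21642074-21642164, plus strand): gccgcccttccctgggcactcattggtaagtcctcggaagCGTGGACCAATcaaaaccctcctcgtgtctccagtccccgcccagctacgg

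HSP90B1 held 2 matches, 1 on each strand, while CRELD2 and SDF2L1 held theirs on the strand opposite to the gene, so their capitals read as the reverse complement. Both motifs contain CCAAT, which alone was found in windows of all 10 genes and in 34.6% of all windows. DNAJB9, PDIA4, ERN1 and SEL1L had no exact match to ERSE or ERSE-II in these windows. Counted by gene, 6 of the 10 genes held either motif, against 44 of 27305 genes in all. Of 96 other genes with a window in the pathway lists described below, 5 did (CALR, CANX, ERO1B and PDIA6 with ERSE, HYOU1 with ERSE-II). The list of heat shock chaperones outside the reticulum was left out of that count. These 10 were chosen as genes of this response, many of which carry the element, so the share among them is partly built into the choice. The element TGACGTGG, known to bind XBP1, was in none of their windows and in 0.729% of all windows. The letters TGATGNAAN of the ATF4 and CHOP composite site were in HERPUD1 alone of the 10, and in 3.61% of all windows. The E-box CACGTG was in HSP90B1, DNAJB9 and HERPUD1 and in 7.26% of all windows. A match describes the letters of a window and does not show that a factor binds there.

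Each library of lineages 22, 35 and 45 held 29.8 to 38.8 M counts (M, 1000000) and each library of lineages 03, 10, 13 and Pop held 28.1 to 35.4 M, and levels are given as CPM, counts per M after TMM normalization within a table. Nothing in the labels says whether replicates came from separate cultures, so p-values measure only how these samples spread, which may be technical. Libraries labelled 35 stand apart: those from co-culture correlated less with lineage 35 in isolation (mean r 0.924 across 14570 genes) than with lineage 45 (0.964) or lineage 22 (0.950) in isolation, while 22 and 45 from co-culture correlated with their own label at 0.962 and 0.970. Lineage 22 from co-culture was nearly as close to isolated lineage 45 (0.958), and isolated lineages 22 and 45 correlated at 0.965. These values therefore do not settle which lineage the libraries labelled 22 from co-culture hold. Whether the libraries labelled 35 from co-culture hold the same lineage as those labelled 35 in isolation was not tested and is in doubt, so each change given for lineage 35 is a difference between libraries with that label. Pop replicate 1 also differed from the other Pop libraries by a chi-square per gene of 53.4 and 73.3, where the other replicate pairs of all groups ran from 5.00 to 44.4. VIM, CD44, AXL, KRT18 and LGALS1, which MDA-MB-231 cells express strongly, were at 259 CPM or more in every library. Of the list of 6 genes low or absent in these cells, ESR1 and PGR did not exceed 0.303 CPM. The whole list summed to between 18.1 and 40.6 CPM, so GATA3, ERBB3, CDH1 and EPCAM carried nearly all of it. Among markers of other cells, CD3E, DCN, JCHAIN, CDH5 and POU2AF1 did not exceed 0.116 CPM. Sums of the other marker lists rested on LAPTM5, ESAM and SDC1, whose group means ran from 13.9 to 210 CPM, from 6.65 to 140 CPM and from 45.5 to 131 CPM. The sorted cells had grown longer and their RNA was taken with another kit, and such differences cannot be told apart from the co-culture itself. In bulk RNA, fewer cells with a transcript and less of it per cell cannot be told apart either.

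ERN1, the sensor of the XBP1 branch (chromosome 17, 64039142 to 64130819, minus strand, GRCh38), was highest in lineage 22 in isolation, and in the same lineage from co-culture it was at a mean of 4.36 CPM, overlapping isolated lineage 35 (4.42 CPM). In lineage 22 it read 14.3, 12.6 and 12.5 CPM in isolation and 3.90, 4.81 and 4.37 CPM from co-culture. In lineage 35 the isolation libraries read 5.46, 4.77 and 3.05 CPM and those from co-culture 6.50, 7.56 and 6.51 CPM. In lineage 45 they read 7.68, 7.64 and 6.79 CPM in isolation and 4.58, 6.55 and 6.68 CPM from co-culture. The groups of each lineage did not overlap, but they were ordered differently: lineages 22 and 45 were higher in isolation and lineage 35 was higher from co-culture. Over all genes tested, 65.3%, 71.4% and 50.4% likewise did not overlap in lineages 22, 35 and 45, beside 6, 8 and 6 of the 10. Groups without overlap were thus common, here and in the genes below. ERN1 fell 3.01-fold in lineage 22 (log2 -1.59 ± 0.17 SE, adjusted p 3.05e-07) and rose 1.55-fold in lineage 35 (log2 0.63 ± 0.17, adjusted p 0.00337). Lineage 45 differed by log2 -0.31 ± 0.17 (adjusted p 0.146), which did not pass the threshold of 0.05.

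XBP1, the transcription factor gene whose mRNA ERN1 cuts (chromosome 22, 28794555 to 28800597, minus strand), was set apart by its low level in isolated lineage 35. Those libraries read 47.4, 46.5 and 42.1 CPM against 101, 86.3 and 75.1 CPM in the same lineage from co-culture. In lineage 22 it read 86.2, 88.7 and 83.1 CPM in isolation and 95.3, 93.2 and 106 CPM from co-culture. In lineage 45 the values were 70.2, 64.8 and 71.6 CPM in isolation and 83.6, 86.2 and 72.7 CPM from co-culture. Every co-culture library was above every isolation library of its own lineage, with a wide gap in lineage 35 alone. XBP1 rose 1.93-fold in lineage 35 (log2 0.95 ± 0.10, adjusted p 4.75e-08), whereas the differences in lineage 22 (0.19 ± 0.10, adjusted p 0.0941) and lineage 45 (0.23 ± 0.10, adjusted p 0.0599) did not pass. With the lineage 35 libraries left out of the fit, both passed, at 0.22 (adjusted p 0.0362) and 0.24 (adjusted p 0.0309). XBP1 and ERN1 thus moved apart in lineage 22, with ERN1 lower and XBP1 at log2 0.19, while both rose in lineage 35.

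HSPA5 encodes BiP, the main chaperone of the endoplasmic reticulum lumen, which also holds the sensors inactive (chromosome 9, 125234853 to 125241330, minus strand). Its libraries of lineage 22 read 1503, 1707 and 1562 CPM in isolation and 1172, 1240 and 1436 CPM from co-culture. In lineage 45 the order was the opposite, with 995, 883 and 1006 CPM in isolation and 1200, 1262 and 1179 CPM from co-culture. In lineage 35 the groups overlapped, at 1023, 1104 and 1129 CPM in isolation and 1198, 1109 and 1000 CPM from co-culture. HSPA5 therefore fell 1.24-fold in lineage 22 (log2 -0.31 ± 0.09, adjusted p 0.00556) and rose 1.26-fold in lineage 45 (0.34 ± 0.09, adjusted p 0.00484), with 0.02 ± 0.09 in lineage 35 (adjusted p 0.833). HSP90B1, its partner chaperone GRP94 (chromosome 12, 103930107 to 103953645, plus strand), ran from 1476 to 1685 CPM in isolated lineage 22 and from 953 to 1512 CPM in all other groups of the table. It fell in lineage 22 (log2 -0.26 ± 0.09, adjusted p 0.0204), and that call was lost without isolation replicate 2 (-0.21, adjusted p 0.0951), co-culture replicate 1 (-0.24, 0.0589) or co-culture replicate 2 (-0.18, 0.135), and with only the lineage 22 libraries in the fit (-0.24, 0.0895).

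DNAJB9, a co-chaperone that directs BiP and restrains IRE1alpha (chromosome 7, 108569568 to 108574850, plus strand), had the widest range of the 10 genes. In lineage 22 it read 24.8, 27.8 and 27.2 CPM in isolation and 10.1, 8.47 and 6.59 CPM from co-culture. In lineage 35 it read 7.91, 8.20 and 8.09 CPM in isolation and 12.4, 12.2 and 13.7 CPM from co-culture. Neither pair of groups overlapped, and isolated lineage 35 was at the level that lineage 22 had from co-culture. DNAJB9 fell 3.16-fold in lineage 22 (log2 -1.66 ± 0.15, adjusted p 4.23e-08) and rose 1.58-fold in lineage 35 (0.66 ± 0.15, adjusted p 0.000778). In lineage 45 the isolation libraries read 13.3, 13.9 and 15.6 CPM and those from co-culture 14.8, 10.1 and 9.28 CPM, so that 1 co-culture library lay inside the isolation range. That difference was log2 -0.32 ± 0.15 (adjusted p 0.0887), or -0.55 (adjusted p 0.00366) without co-culture replicate 1. SDF2L1, which holds BiP to its clients (chromosome 22, 21642261 to 21644298, plus strand), had values from 13.2 to 14.7 CPM in isolated lineage 35 and from 15.8 to 21.9 CPM elsewhere in the table. It rose in lineage 35 from co-culture (log2 0.44 ± 0.11, adjusted p 0.00162), and in lineage 22 it differed by 0.01 ± 0.11 (adjusted p 0.937).

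Among the folding enzymes, PDIA4 (chromosome 7, 149003062 to 149028641, minus strand) did not pass edgeR's test in any lineage as fitted. The log2 differences were -0.16 ± 0.08 (lineage 22), 0.16 ± 0.08 (lineage 35) and -0.06 ± 0.08 (lineage 45), over values between 295 and 462 CPM. It was called in lineage 35 by DESeq2 (0.17, adjusted p 0.0342), and in lineage 22 with the stricter filter (-0.20, adjusted p 0.0226), without isolation replicate 1 (-0.21, 0.0406) or without co-culture replicate 3 (-0.22, 0.0250). CRELD2 (chromosome 22, 49918167 to 49927540, plus strand) fell in lineage 35 by 0.37 on the log2 scale (SE 0.11, adjusted p 0.00741). Its libraries there read 22.2, 22.6 and 24.7 CPM in isolation and 17.0 to 18.7 CPM from co-culture, without overlap. HSP90B1 was also at a negative value there (-0.18 ± 0.09, adjusted p 0.0943), and it was called lower without isolation replicate 1 (-0.24, 0.0444) or co-culture replicate 2 (-0.24, 0.0454) of lineage 35.

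Both degradation genes fell in lineage 22 and rose in lineage 35, and in lineage 45 HERPUD1 rose while SEL1L did not pass (log2 -0.14 ± 0.12, adjusted p 0.372). HERPUD1, which gathers the retrotranslocation complex (chromosome 16, 56932048 to 56944863, plus strand), read 59.5, 65.6 and 64.3 CPM in isolated lineage 22 and 44.6, 48.3 and 41.7 CPM after co-culture. In lineage 35 it read 29.8, 28.5 and 26.8 CPM in isolation and 48.9, 42.5 and 40.9 CPM from co-culture. In lineage 45 the values were 33.2, 31.1 and 32.6 CPM and 42.9, 36.9 and 36.0 CPM. The 3 pairs of groups did not overlap, with lineage 22 the only 1 to be lower from co-culture. SEL1L, the adaptor of the ubiquitin ligase HRD1 (chromosome 14, 81471549 to 81533861, minus strand), read 216, 237 and 243 CPM in isolated lineage 22 and 136, 147 and 189 CPM from co-culture. In lineage 35 it read 97.2, 103 and 77.7 CPM in isolation and 152, 146 and 164 CPM from co-culture, and in lineage 45 the groups overlapped. HERPUD1 fell 1.41-fold in lineage 22 (log2 -0.49 ± 0.09, adjusted p 9.22e-05) and rose 1.55-fold in lineage 35 (0.64 ± 0.09, adjusted p 3.19e-06). SEL1L fell 1.48-fold (-0.56 ± 0.12, adjusted p 0.000457) and rose 1.66-fold (0.73 ± 0.12, adjusted p 1.94e-05) in the same comparisons. From co-culture HERPUD1 had means of 44.9 ± 3.31, 44.1 ± 4.22 and 38.6 ± 3.76 CPM (SD) in lineages 22, 35 and 45, where isolation gave 63.1 ± 3.22, 28.4 ± 1.49 and 32.3 ± 1.12 CPM. SEL1L had 157 ± 28.1, 154 ± 9.40 and 123 ± 6.44 CPM from co-culture, where isolation gave 232 ± 14.2, 92.5 ± 13.1 and 135 ± 15.8 CPM.

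**Figure D1:**
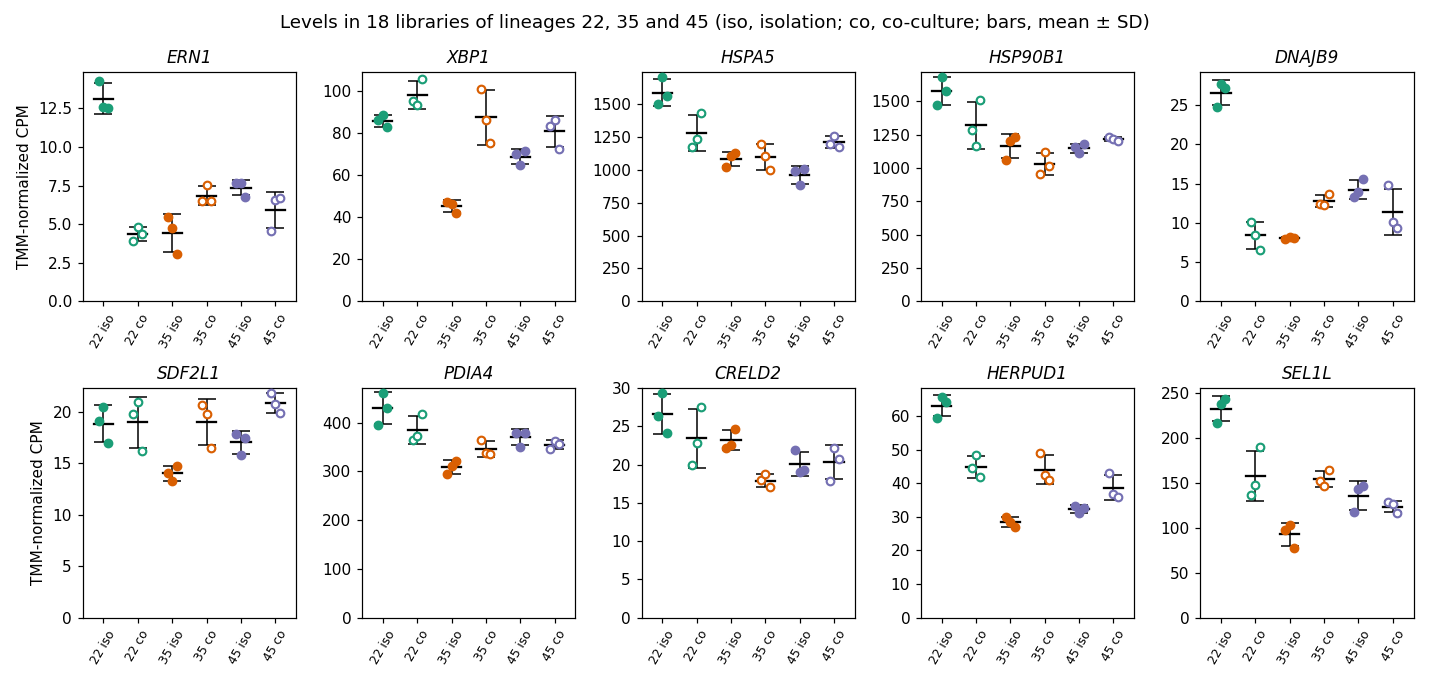
TMM-normalized CPM of each gene (vertical axes, from 0) in the 18 libraries of lineages 22, 35 and 45, as points, with group means and SD as bars, in isolation (iso) and from co-culture (co). Isolated lineage 22 sits above every other group for ERN1 (12.5 to 14.3 CPM), DNAJB9, HERPUD1, SEL1L and HSPA5, and isolated lineage 35 is lowest for XBP1 (42.1 to 47.4 CPM).

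Counted together, 6 of the 10 genes fell in lineage 22, and in lineage 35, 6 rose and 1 fell. In lineage 22, 6 were lower from co-culture (DNAJB9, ERN1, SEL1L, HERPUD1, HSPA5 and HSP90B1) and none higher, with a median of log2 -0.28 against -0.04 over all 14570 genes tested, of which 56.9% were called, 27% higher and 30% lower. In lineage 35, 6 were higher (XBP1, SEL1L, DNAJB9, HERPUD1, ERN1 and SDF2L1) and CRELD2 lower, with a median of 0.54 against 0.01 over all genes, where 65.5% were called, 32.7% higher and 32.9% lower. In lineage 45, 3 were higher and none lower (HSPA5, SDF2L1 with log2 0.29 ± 0.11 and HERPUD1 with 0.26 ± 0.09), a median of 0.05 against -0.03, beside 41.8% of all genes called, 18.6% higher and 23.2% lower. So many genes passed in each lineage that the counts of called genes lie near the background. The calls among the 10 went mostly 1 way in each lineage. This describes these genes only, since they were chosen with earlier results of these data known. The count in lineage 45 dropped to 1 (HSPA5) without isolation replicate 2 or isolation replicate 3. HERPUD1 then stood at 0.23 (adjusted p 0.0912) and 0.27 (0.0503) and SDF2L1 at 0.24 (0.147) and 0.31 (0.0614), and without co-culture replicate 1 they stood at 0.18 (0.130) and 0.26 (0.103). SDF2L1 was also lost without co-culture replicate 2 (0.29, adjusted p 0.0737). With the lineage 35 libraries left out of the fit the counts were 7 in lineage 22 and 4 in lineage 45, XBP1 being added to each.

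Markers of other cells moved in the same comparisons. The summed leukocyte list was 10.7 to 26.6 CPM in isolated lineage 35 and 67.4 to 73.4 CPM from co-culture, with 3 of 3 tested genes higher, and 200 to 229 CPM and 142 to 157 CPM in lineage 22, with 2 of 3 lower. In lineage 45 it was 141 to 180 CPM and 91.3 to 99.5 CPM, with 1 of 3 lower. The endothelial list summed to 6.36 to 7.51 CPM in isolation and 124 to 134 CPM from co-culture in lineage 35, 95.8 to 99.8 CPM and 140 to 150 CPM in lineage 22, and 117 to 124 CPM and 125 to 138 CPM in lineage 45. The plasma cell list, given because such cells use XBP1, summed to 59.4 to 64.5 CPM and 91.2 to 105 CPM in lineage 35, 45.5 to 49.0 CPM and 71.9 to 87.0 CPM in lineage 22, and 72.0 to 80.6 CPM and 95.9 to 97.3 CPM in lineage 45. In lineage 22, where 6 of the 10 genes fell, the leukocyte sum was lower from co-culture and the endothelial and plasma cell sums were higher. In lineage 35, where 6 rose and 1 fell, all 3 sums were higher. In lineage 45, where 3 rose, the leukocyte sum was lower and the other sums were higher. The defining genes stayed near 0, with PTPRC at most 1.27 CPM, CDH5 at most 0.116 CPM and JCHAIN at most 0.0582 CPM. The part of these markers in the changes of the 10 genes was not tested.

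**Figure D2:**
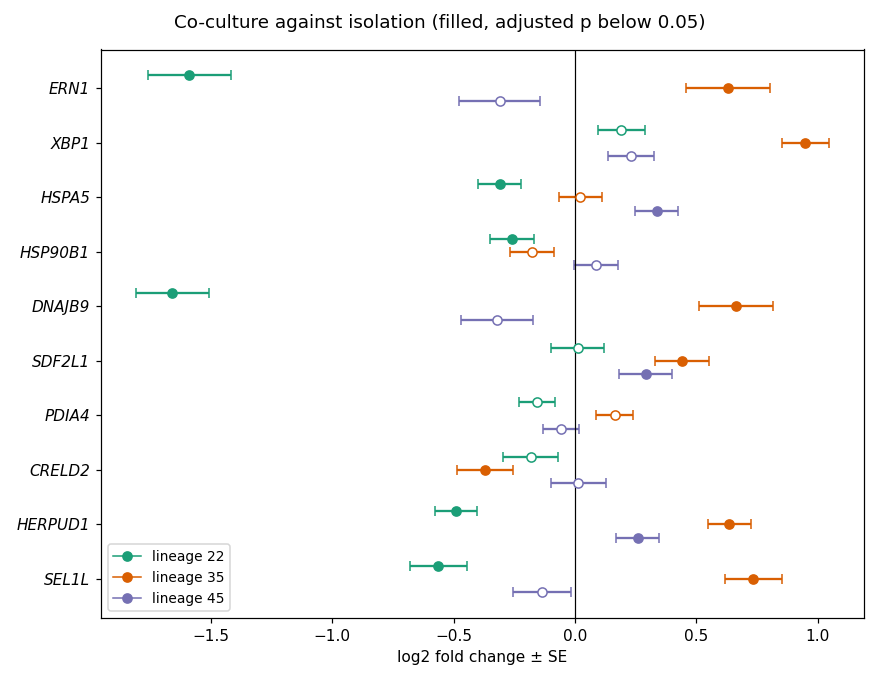
Log2 fold change of co-culture against isolation (horizontal axis, ± SE) for each gene in lineages 22, 35 and 45, with filled points where the adjusted p was below 0.05. DNAJB9 and ERN1 lie at -1.66 and -1.59 in lineage 22 and at 0.66 and 0.63 in lineage 35.

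Whether the co-culture change differed between lineages was tested by the interaction of lineage and culture. Of the 10 genes 7 passed the F test over the 3 lineages (DNAJB9, ERN1, HERPUD1, SEL1L, XBP1, HSPA5 and PDIA4), beside 55.2% of all genes. PDIA4 was at the margin (adjusted p 0.0404) and lost its call when any of 11 of the 18 libraries was left out, namely all but isolation replicate 1 and co-culture replicate 3 of lineage 22, isolation replicate 3 of lineage 35 and, in lineage 45, isolation replicate 2 and the co-culture libraries, with adjusted p between 0.0544 and 0.113 for those 11. The change of lineage 22 was below that of lineage 35 in 8 genes and above it in none, beside 49.6% of all genes called and 25.4% called lower. DNAJB9 differed by log2 -2.32 ± 0.22 (adjusted p 2.23e-08), ERN1 by -2.22 ± 0.24 (2.36e-07), SEL1L by -1.30 ± 0.17 (2.13e-06) and HERPUD1 by -1.13 ± 0.12 (2.62e-07). XBP1 differed by -0.76 ± 0.14 (adjusted p 0.000108). Smaller calls among the 8 were PDIA4 (-0.32), HSPA5 (-0.33) and SDF2L1 (-0.43), and the count went down to 5 without isolation replicate 2 of lineage 22, where they stood at adjusted p 0.0611, 0.0932 and 0.0787. HSPA5 and SDF2L1 each lost the call without 5 further libraries: both without co-culture replicates 1 and 2 of lineage 35, HSPA5 also without co-culture replicates 1 and 2 of lineage 22 and isolation replicate 1 of lineage 35, and SDF2L1 without isolation replicate 1 and co-culture replicate 3 of lineage 22 and isolation replicate 2 of lineage 35. PDIA4 also lost it without isolation replicate 1 of lineage 35 (-0.28, adjusted p 0.0505).

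Lineages 22 and 45 from co-culture each correlated most with isolated libraries of their own label, though for lineage 22 by little (0.962 against 0.958 with lineage 45). They differed in the change of 4 genes, all lower in lineage 22, beside 17.3% of all genes called, 9.25% higher and 8.08% lower. These were DNAJB9 (log2 -1.34 ± 0.21, adjusted p 0.000239), ERN1 (-1.28 ± 0.24, 0.00107), HERPUD1 (-0.75 ± 0.12, 0.00035) and HSPA5 (-0.65 ± 0.13, 0.00137), and each kept its call with the lineage 35 libraries left out of the fit. XBP1 changed by nearly the same amount in both lineages, with a difference of -0.04 ± 0.14. Lineages 35 and 45 differed in 6 genes, 5 with the larger change in lineage 35 and HSPA5 with the smaller, beside 42.3% of all genes. HSPA5 was at adjusted p 0.0498 there and lost its call without 10 of the 12 libraries, all but isolation replicate 1 and co-culture replicate 1 of lineage 35. HERPUD1 (0.38, adjusted p 0.0194) lost its call without co-culture replicate 1 of lineage 35 (0.30, adjusted p 0.0654).

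In isolation, lineage 22 stood above both other lineages in nearly all 10 genes. Against lineage 35, 9 genes were higher and none lower, with a median of log2 0.74 against 0.00 over all genes tested, of which 63.6% were called, 32.2% higher and 31.4% lower. The widest of these were DNAJB9 (3.29-fold), ERN1 (2.97-fold), SEL1L (2.51-fold) and HERPUD1 (2.22-fold), and CRELD2 differed by log2 0.20 ± 0.11 (adjusted p 0.129). Against lineage 45, 9 genes were again higher and none lower, with a median of 0.59 against -0.01, beside 38.4% of all genes called, 18.6% higher and 19.8% lower. HERPUD1 was 1.95-fold higher (log2 0.97 ± 0.09), DNAJB9 1.86-fold, ERN1 1.78-fold and HSPA5 1.66-fold, and SDF2L1 differed by 0.15 ± 0.11 (adjusted p 0.311). These comparisons share the isolated lineage 22 libraries with each other and with the co-culture comparison of lineage 22. PDIA4 lost its call against lineage 45 (0.22, adjusted p 0.0282) without isolation replicate 2 (0.16, 0.152) or 3 (0.21, 0.0718) of lineage 22 or replicate 2 of lineage 45 (0.18, 0.124), and XBP1 (0.32, 0.0118) without replicate 2 of lineage 45 (0.28, 0.0603). PDIA4 was also lost with the lineage 35 libraries out of the fit (0.21, adjusted p 0.0627).

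Isolated lineage 35 was below isolated lineage 45 in 6 genes and above it in none, beside 51.8% of all genes called and 27.6% called lower. DNAJB9 was lower by log2 -0.82 ± 0.15, ERN1 by -0.73 ± 0.17, XBP1 by -0.60 ± 0.10 and SEL1L by -0.55 ± 0.12, whereas HSPA5 and HSP90B1 differed by 0.18 ± 0.09 and 0.02 ± 0.09. SDF2L1 (-0.28, adjusted p 0.0382) lost its call without replicate 1 (-0.28, 0.0744) or 2 (-0.24, 0.124) of lineage 35, or replicate 1 (-0.25, 0.112) or 3 (-0.26, 0.0976) of lineage 45. LAPTM5, which carried the sum of the leukocyte list, had means of 210 CPM in isolated lineage 22, 162 CPM in lineage 45 and 18.3 CPM in lineage 35. The means of ERN1, DNAJB9, XBP1, SEL1L, HERPUD1, PDIA4 and SDF2L1 had the same order, whereas HSPA5, HSP90B1 and CRELD2 had lineage 35 above lineage 45. PTPRC, the defining leukocyte gene, did not exceed 1.27 CPM, and the part of such cells in these differences was not tested.

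From co-culture, fewer of the 10 genes separated the lineages, and the same held over all genes. For 22 against 35, 22 against 45 and 35 against 45, 63.6%, 38.4% and 51.8% of all genes were called in isolation. From co-culture these shares were 31.1%, 25.2% and 12.7%, so the drop was not particular to the 10 genes. Between lineages 22 and 35, HSP90B1 (log2 0.36 ± 0.09) and CRELD2 (0.39 ± 0.11) were higher and DNAJB9 (-0.60 ± 0.15) and ERN1 (-0.65 ± 0.17) lower in lineage 22, beside 31.1% of all genes called. The sign of DNAJB9 and ERN1 was thus the reverse of that in isolation, with means of 8.40 ± 1.77 and 4.36 ± 0.45 CPM in lineage 22 and 12.8 ± 0.83 and 6.86 ± 0.61 CPM in lineage 35. CRELD2 lost its call without co-culture replicate 3 of lineage 22 (0.26, adjusted p 0.0992) or of lineage 35 (0.36, 0.0539). Lineage 22 against lineage 45 gave 3 calls, SEL1L (0.35) and XBP1 (0.28) higher and DNAJB9 (-0.44) lower, beside 25.2% of all genes. None of the 3 was called without co-culture replicate 3 of lineage 22 or with only these libraries in the fit, and without co-culture replicate 3 of lineage 45 the count was 1, so these differences rest on single libraries. DNAJB9 then stood at -0.29 (adjusted p 0.199) without replicate 3 of lineage 22 and at -0.20 (0.340) without replicate 1 of lineage 45, XBP1 at 0.22 and 0.21 (both 0.140) without replicate 3 of either lineage, and SEL1L at 0.20 (0.224) and 0.31 (0.0970). The same calls were lost without replicate 2 of lineage 22 (DNAJB9), replicate 1 of lineage 45 (XBP1, SEL1L) and replicate 2 of lineage 45 (SEL1L). Between lineages 35 and 45 edgeR called 0 of the 10 genes, beside 12.7% of all genes (6.42% higher and 6.28% lower). At an unadjusted p under 0.05 there were 3 (HSP90B1, HERPUD1 and SEL1L), and DESeq2 called 1, HSP90B1 at -0.26 (adjusted p 0.0439).

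**Figure D3:**
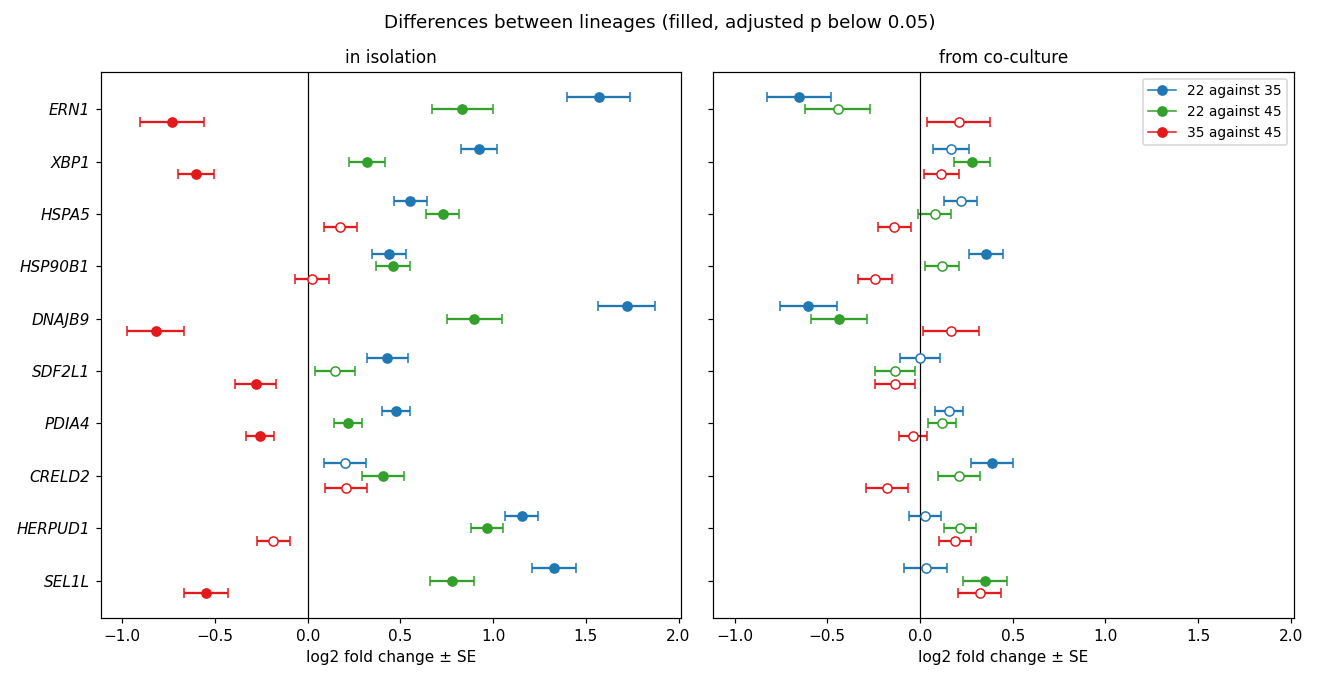
Log2 fold change (horizontal axes, ± SE) between lineages in isolation (left) and from co-culture (right), with filled points where the adjusted p was below 0.05. In isolation the points of 22 against 35 and of 22 against 45 all lie right of 0, up to 1.72 for DNAJB9, whereas from co-culture all points lie between -0.65 and 0.39.

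In the second table, lineage 03 held the high levels and lineages 10 and 13 the low ones for most of the 10 genes. ERN1 read 17.6, 16.7 and 16.6 CPM in lineage 03, 6.43, 5.28 and 5.54 CPM in lineage 10, and 6.69, 5.89 and 4.18 CPM in lineage 13. In Pop it read 3.53, 8.82 and 8.69 CPM, so Pop replicate 1 was below every library of the table while the other Pop libraries were above lineages 10 and 13. DNAJB9 read 38.8, 27.9 and 30.02 CPM in lineage 03, 9.07, 9.22 and 7.37 CPM in lineage 10, 13.9, 13.0 and 12.2 CPM in lineage 13 and 13.5, 16.1 and 20.1 CPM in Pop. Lineage 03 did not overlap any other group in either gene. XBP1 read 82.4, 80.1 and 91.7 CPM in lineage 03, 50.6, 48.2 and 44.0 CPM in lineage 10, 39.5, 37.8 and 36.4 CPM in lineage 13 and 78.7, 68.3 and 70.6 CPM in Pop. PDIA4 read 469, 454 and 394 CPM in lineage 03, 205, 202 and 218 CPM in lineage 10, 195, 198 and 194 CPM in lineage 13 and 306, 359 and 349 CPM in Pop. The 4 groups were separate in XBP1 and PDIA4 alike, in the order 03, Pop, 10 and 13, and HERPUD1 had the same order without overlap (means 49.8 ± 4.53, 38.6 ± 3.68, 31.1 ± 1.58 and 22.8 ± 0.61 CPM). For pairs of these groups, 50.5% to 65.1% of all genes tested did not overlap, beside 5 to 9 of the 10 genes.

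All 10 genes passed the F test over the 4 groups, beside 75.9% of all 14638 genes tested. Lineage 03 was higher than lineage 10 in 8 genes (median log2 0.69 against -0.01 over all genes, with 51.4% called, 26.4% higher and 25% lower) and higher than lineage 13 in 8 genes (median 0.97 against -0.03, with 53.2% called, 26.1% higher and 27.1% lower), and lower in none. DNAJB9 was 3.76-fold higher in 03 than in 10 (log2 1.91 ± 0.16, adjusted p 4.15e-07) and ERN1 2.95-fold (1.56 ± 0.26, 0.000222), while PDIA4 was 2.10-fold higher (1.07 ± 0.08, 2.32e-07). Against lineage 13, ERN1 was 3.04-fold higher (1.60 ± 0.26), and PDIA4 and XBP1 were each 2.24-fold higher (1.17 ± 0.08 and 1.16 ± 0.08). SDF2L1 and CRELD2 passed in neither comparison. HSPA5 lost its call against lineage 10 (0.29, adjusted p 0.0271) without replicate 1 or 2 of either lineage (adjusted p 0.0567 to 0.0928), and HSP90B1 lost it against lineage 13 (0.40, 0.0119) without replicate 1 of that lineage (0.32, 0.0589). Lineages 10 and 13 differed in 3 genes, XBP1 (0.33 ± 0.08) and HERPUD1 (0.45 ± 0.09) higher in 10 and DNAJB9 (-0.61 ± 0.16) lower, beside 34.6% of all genes.

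Against Pop, lineage 03 was higher in 6 genes and lower in 2 (48.7% of all genes called, 23.2% higher and 25.5% lower), lineage 10 lower in 6 and higher in none (42.3%, 18.8% higher and 23.5% lower) and lineage 13 lower in 7 and higher in none (45.2%, 21% higher and 24.2% lower), and these 3 comparisons share the Pop libraries. ERN1 and DNAJB9 were higher in lineage 03 by log2 1.27 ± 0.26 (adjusted p 0.0011) and 0.96 ± 0.15 (0.000166). The 2 lower genes were SDF2L1 (-0.39 ± 0.13) and CRELD2 (-0.34 ± 0.11), which were highest in Pop. In lineage 13, XBP1 was lower by -0.94 ± 0.08 (adjusted p 1.23e-06), PDIA4 by -0.79 ± 0.08 and HERPUD1 by -0.76 ± 0.09, and in lineage 10 DNAJB9 was lower by -0.95 ± 0.16. Without Pop replicate 1 the counts were 7, 7 and 8 genes. ERN1 then differed from Pop in lineages 10 and 13 by -0.61 (adjusted p 0.00623) and -0.67 (0.00282), where all libraries gave -0.29 (0.409) and -0.33 (0.336), so that 1 library decides whether ERN1 was called there. Calls lost without Pop replicate 1 were SDF2L1 and CRELD2 in lineage 03 (-0.26, adjusted p 0.0945, and -0.18, 0.105), CRELD2 in lineage 10 (-0.14, 0.222) and SDF2L1 in lineage 13 (-0.30, 0.0589). Calls gained were HSP90B1 in lineage 03 (0.31), SEL1L in lineage 10 (-0.21) and DNAJB9 in lineage 13 (-0.49). Leaving out other single libraries removed the calls of SDF2L1 (03 replicate 2, 13 replicates 1 and 2), CRELD2 (03 replicates 1 and 3, any library of 10), XBP1 in 03 (03 replicate 3, Pop replicates 2 and 3), HERPUD1 in 10 (10 replicate 3, Pop replicates 2 and 3), and HSPA5 and SEL1L in 13 (13 replicates 1 and 3). LAPTM5 was also high in Pop and lineage 03 and low in the others, with means of 104 CPM in Pop, 79.9 CPM in lineage 03, 16.7 CPM in lineage 13 and 13.9 CPM in lineage 10, and its part was not tested.

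**Figure D4:**
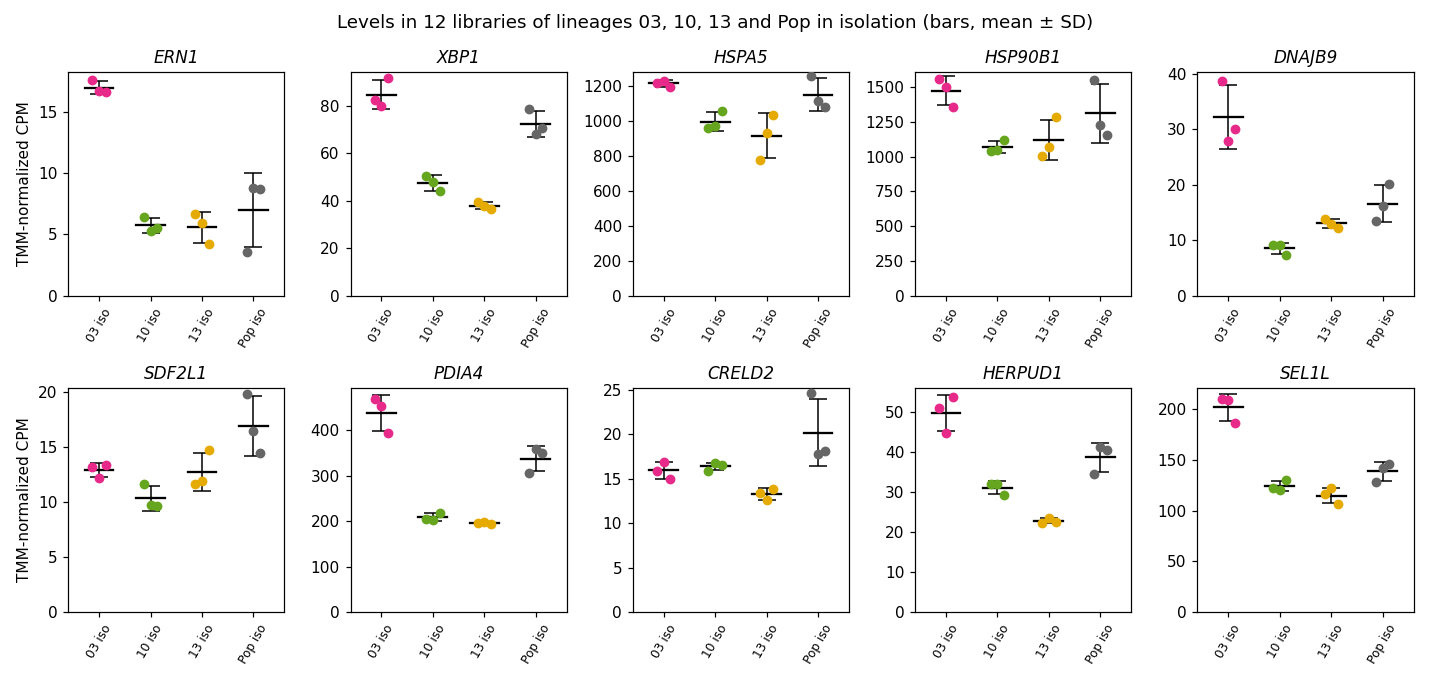
TMM-normalized CPM of each gene (vertical axes, from 0) in the 12 isolation libraries of lineages 03, 10, 13 and Pop, as points, with group means and SD as bars. Lineage 03 is highest for ERN1 (16.6 to 17.6 CPM) and 7 other genes, and Pop is highest for SDF2L1 and CRELD2, with 1 Pop library of ERN1 at 3.53 CPM.

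The 10 genes differed in how far they spread. The highest over the lowest group mean was 3.30 and 3.77 for DNAJB9 in the first and second tables, 3.01 and 3.04 for ERN1, and 2.17 and 2.24 for XBP1. The abundant chaperones spread less, 1.66 and 1.33 for HSPA5 and 1.53 and 1.38 for HSP90B1. PDIA4 was narrow in the first table, at 1.39, and wide in the second, at 2.24. Ordered by their means, isolated lineage 22 led the first table in 8 of the 10 genes, XBP1 being led by lineage 22 from co-culture and SDF2L1 by lineage 45 from co-culture. Below that, most neighbours in the order overlapped: in HSPA5 the groups from lineage 22 in co-culture down to isolated lineage 35 ran into each other, and in HSP90B1 each group overlapped the next. Across the 18 libraries, log2 CPM of HSPA5 correlated with that of HSP90B1 at r = 0.83 and with that of ERN1 at 0.42, and DNAJB9 correlated with ERN1 at 0.85 and HERPUD1 with SEL1L at 0.88. Across the 12 libraries of the second table XBP1 correlated with HERPUD1 at 0.95, and the lowest value was CRELD2 with ERN1 at -0.16. These libraries fall into groups of 3 and the values describe them only.

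Large parts of chromosomes differ in RNA level between these lineages, and also between the cultures of a label. From co-culture against isolation, the other tested protein-coding genes of chromosome 7 had a median of -0.29 in lineage 45. Those of chromosomes 12 and 14 had medians of 0.43 and 0.32 in lineage 35. Each gene was therefore set beside the median of the 50 tested protein-coding genes nearest to it on its chromosome. DNAJB9 on chromosome 7 was lower in lineage 45 from co-culture by -0.32, and its neighbours had a median of -0.35. Its differences between lineages from co-culture (-0.60 for 22 against 35 and -0.44 for 22 against 45) likewise stood beside neighbour medians of -0.50 and -0.31, and that of lineage 10 against 13 (-0.61) beside -0.45. In these comparisons DNAJB9 was thus close to the genes around it. Elsewhere it lay further from them: DNAJB9 fell by 1.66 on the log2 scale in lineage 22 beside a median of -0.08, and its 1.72 between isolated lineages 22 and 35 stood beside -0.28. In other comparisons the neighbours moved in the same direction by less, with 0.45 beside 1.91 for DNAJB9 in 03 against 10, -0.45 beside -0.95 in 10 against Pop, and 0.16 beside 0.66 in lineage 35 from co-culture. PDIA4, also on chromosome 7, differed by 1.07 between lineages 03 and 10 beside 0.52, but by 0.38 between lineage 03 and Pop beside 0.33. HSPA5 on chromosome 9 differed by 0.55 between isolated lineages 22 and 35 beside -0.44. SEL1L on chromosome 14 rose by 0.73 in lineage 35 from co-culture beside 0.10. ERN1 on chromosome 17 had neighbour medians between -0.13 and 0.17 in all comparisons, with its own differences from -1.59 to 1.60 between groups. Whether copy number differs between the lineages, or between the cultures of a label, was not tested. Nor was it tested whether the libraries labelled 45 hold the same cells in both cultures.

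**Figure D5:**
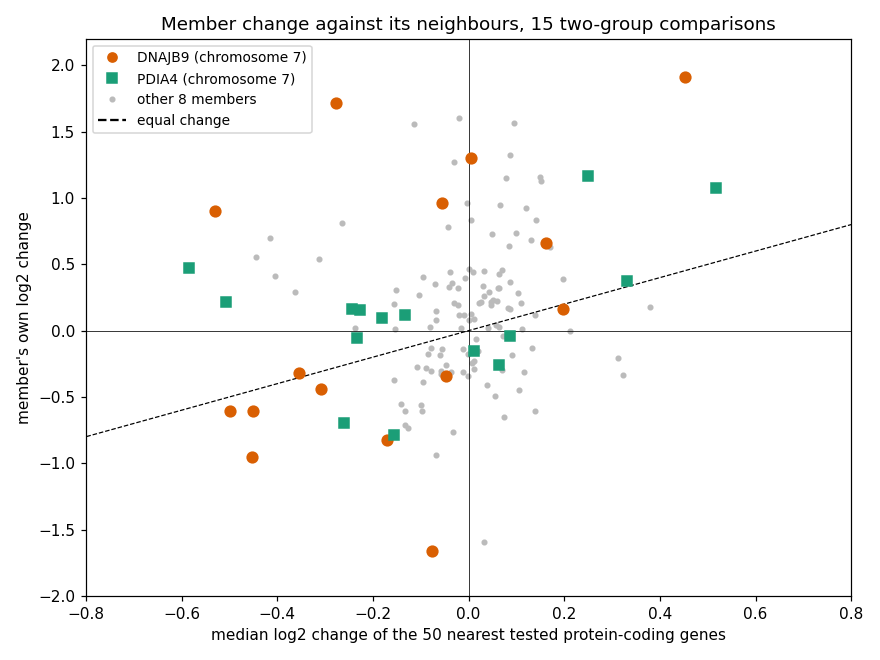
Log2 change of each gene (vertical axis) against the median log2 change of its 50 nearest tested protein-coding genes (horizontal axis) in the comparisons between 2 groups, with DNAJB9 and PDIA4 marked and a dashed line of equal change. The fall of DNAJB9 in lineage 22 (-1.66) lies beside a median of -0.08, while its -0.32 in lineage 45 lies near the line at -0.35.

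Other arms of the response were read from lists of genes. The PERK and ATF4 arm, which slows translation and induces CHOP, had 11 of its 12 genes higher and 1 lower in lineage 35 from co-culture (median log2 0.93), 3 higher and 3 lower in lineage 22 (median -0.17) and 4 higher and 1 lower in lineage 45 (median 0.20). Its gene DDIT3, which encodes CHOP, fell by 1.03 ± 0.13 in lineage 22 and rose by 0.99 ± 0.13 in lineage 35, with 0.20 ± 0.13 in lineage 45, and ATF3, a transcription factor of the same arm, fell by 0.93 ± 0.16 and rose by 1.13 ± 0.17. VLDLR, a lipoprotein receptor in the list, rose in lineage 35 by 0.83 ± 0.11 and differed by -0.09 ± 0.11 in lineage 22. All 12 genes passed the F test of the co-culture change, as did 55.2% of all genes. The list counts here and below stand beside 27% of all genes called higher and 30% lower in lineage 22, 32.7% higher and 32.9% lower in lineage 35, and 18.6% higher and 23.2% lower in lineage 45. In a list of heat shock chaperones outside the reticulum, 12 of 13 genes were higher in lineage 22 and none lower (median 0.58), 8 higher and 3 lower in lineage 35 (0.44) and 10 higher in lineage 45 (0.36). HSP90AB1, the constitutive HSP90, rose by 0.56 ± 0.08 in lineage 22 and by 0.32 ± 0.08 in lineage 45 and fell by 0.53 ± 0.08 in lineage 35. The co-chaperone BAG3 rose by 0.51 ± 0.08 in lineage 22 and 1.06 ± 0.08 in lineage 35, and the mitochondrial HSPE1 rose by 0.61 ± 0.09 in lineage 22 and fell by 0.34 ± 0.09 in lineage 35.

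Of 16 genes of transport from the reticulum to the Golgi, 9 were lower and 1 higher in lineage 22 (median -0.26). There SEC24D and SEC23A, coat proteins of the transport vesicles, fell by 0.83 ± 0.09 and 0.37 ± 0.08, and KDELR3, which returns chaperones to the reticulum, fell by 0.29 ± 0.09. In lineage 35, 6 of the 16 were higher and 2 lower, with SEC23A up by 0.77 ± 0.09, and in lineage 45, 1 was higher and 1 lower. Of 16 other chaperones 3 were higher and 3 lower in lineage 22, 7 higher and 1 lower in lineage 35, and 6 higher and 1 lower in lineage 45. DNAJC3, a co-chaperone that inhibits PERK, fell by 0.47 ± 0.09 in lineage 22 and rose by 0.53 ± 0.09 in lineage 35, whereas the prolyl isomerase PPIB fell by 0.75 ± 0.11 in lineage 35 and the collagen chaperone SERPINH1 rose by 0.31 ± 0.07 in lineage 22 and 0.59 ± 0.07 in lineage 45. Of 14 other disulfide isomerases and oxidases 3 were higher and 5 lower in lineage 22, 5 and 6 in lineage 35, and 6 and none in lineage 45. The oxidase ERO1B fell by 0.96 ± 0.18 in lineage 22 and rose by 1.51 ± 0.20 in lineage 35, and its relatives did otherwise: TXNDC5 and PDIA3 fell by 0.48 ± 0.07 and 0.61 ± 0.08 in lineage 35.

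Of 20 other degradation genes 7 were higher and 5 lower in lineage 22, 10 higher and 4 lower in lineage 35, and 3 higher and 3 lower in lineage 45. AUP1 fell by 1.07 ± 0.08 in lineage 35 against 0.06 ± 0.08 in lineage 22, SELENOS rose by 0.53 ± 0.08 in lineage 22 and fell by 0.29 ± 0.08 in lineage 35, and the ubiquitin-conjugating enzyme UBE2G2 rose by 0.28 ± 0.07 in lineage 35 and fell by 0.34 ± 0.07 in lineage 45. The list thus held genes that moved against HERPUD1 and SEL1L. Of 20 genes of translocation and glycosylation 6 were higher and 5 lower in lineage 22, 6 and 5 in lineage 35, and 6 and none in lineage 45. SSR4, a subunit of the translocon-associated complex, fell by 0.69 ± 0.11 in lineage 22 and rose by 1.37 ± 0.11 in lineage 35. DAD1, of the oligosaccharyltransferase, rose by 1.18 ± 0.09 in lineage 35, and SEC11A, of the signal peptidase, fell there by -0.48 ± 0.08. Of 10 other sensors and transcription factors that were tested (11 in the list) 1 was higher and 1 lower in lineage 22, 5 and 3 in lineage 35, and none higher and 1 lower in lineage 45. MBTPS2, a protease that frees ATF6 from the membrane, fell by 1.19 ± 0.12 in lineage 22 and 0.47 ± 0.12 in lineage 35, the transcription factor gene CREB3L2 rose by 0.31 ± 0.09 and fell by 0.48 ± 0.09 in the same lineages, and ATF6B fell in lineage 35 by -0.55 ± 0.09.

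In the second table, lineage 03 was above lineage 10 in 10 of 15 tested chaperones and below it in 1, and in 8 of 14 isomerases and oxidases and below it in 1, beside 26.4% of all genes called higher and 25% lower. HYOU1, a BiP-related chaperone with an ERSE-II, was higher by 0.52 ± 0.07, CALR by 0.69 ± 0.10, CRELD1 by 0.85 ± 0.11, PDIA5 by 1.10 ± 0.09 and P4HB by 0.89 ± 0.08, while TXNDC12 was lower by -0.53 ± 0.07. Of the other lists, 7 of 9 tested sensors, 11 of 20 translocation and glycosylation genes, 8 of 16 traffic genes, 8 of 20 degradation genes and 6 of 12 PERK and ATF4 genes were higher in lineage 03 than in lineage 10, with none, 1, 1, 1 and none lower. Among these were MBTPS2 (0.93 ± 0.08), MBTPS1 (0.30 ± 0.07), SSR4 (1.28 ± 0.09), STT3B (0.69 ± 0.08), DDOST (0.41 ± 0.06), SEC23A (0.85 ± 0.09), KDELR3 (0.61 ± 0.08), EDEM1 (0.95 ± 0.09), OS9 (0.66 ± 0.08) and VLDLR (0.59 ± 0.14). AUP1 and PREB were lower (-0.86 ± 0.07 and -0.72 ± 0.09), and ATF6B (0.15 ± 0.07), TRIB3 (-0.20 ± 0.10) and DDIT3 (-0.42 ± 0.17) did not pass. DDIT3 was highest in Pop, at 28.8 ± 4.82 CPM, against 13.7 ± 2.40 CPM in lineage 03, so it did not follow the order of ERN1 and XBP1. The cytosolic heat shock list had 2 genes higher and 2 lower of 13, with HSF1 higher in 03 than in 10 (0.40 ± 0.06) and HSP90AA1 and BAG3 lower (-0.87 ± 0.13 and -0.27 ± 0.07).

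The genes whose pattern was most like that of HSPA5 were sought among 10460 genes by the smaller of their correlations over the 18 and over the 12 libraries. TVP23C-CDRT4 (r = 0.86 and 0.80), the Golgi protein GOLM1 (0.79 and 0.86), the chaperone HYOU1 (0.77 and 0.80), the collagen gene COL6A2 (0.76 and 0.79), LY6E (0.80 and 0.76), CALCOCO2 (0.76 and 0.75), TRAFD1 (0.80 and 0.75) and the integrin ITGB1 (0.75 and 0.76) ranked first. HYOU1 is the only 1 of these in the lists above, and its change from co-culture in lineage 22 was 0.11 (adjusted p 0.391) where HSPA5 fell. Of the 8 genes 5 fell there with HSPA5, beside 30% of all genes called lower. COL6A2 fell by 0.81, ITGB1 by 0.31, TRAFD1 by 0.30, TVP23C-CDRT4 by 0.27 and LY6E by 0.21 on the log2 scale. The 8 were picked for correlation with HSPA5 over libraries that include those of lineage 22. A shared fall is thus partly built into the choice and says nothing further about these genes.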

How the data were processed

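RNA was sequenced from 30 libraries of MDA-MB-231 lineages in 10 groups of 3. The deposited tables hold estimated counts per gene made by the authors, not whole numbers. Per the submitters' processing notes STAR 2.6.1d, Salmon 1.4.0 and the hg38 (GRCh38) build were used, and the annotation is not given in the sources used here. The values were rounded to whole counts. Each table was fitted on its own in R 4.3.3 with edgeR 4.0.16 (TMM, filterByExpr, robust quasi-likelihood test, all groups in one fit), leaving 14570 and 14638 genes, with Benjamini-Hochberg adjustment over all of them and a threshold of 0.05. SE is the log2 fold change over the square root of F. DESeq2 1.42.0 served as an alternative, as did other scalings, filters, a replicate block, thinning, and leaving out libraries. The fit was tested on simulated data: for lineage 22, 63.5% of 96 genes changed 1.5-fold and 78.2% of 101 genes changed 2-fold were recovered among 14296 genes. Few genes changed in the simulation and the groups were otherwise alike, whereas 56.9% of genes were called in the real comparison. These shares therefore do not give the recovery in the data.

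The 10 genes, the 8 pathway lists and the marker lists (leukocyte, endothelial, plasma cell, fibroblast, MDA-MB-231) were chosen with earlier results of these data known. Named were all 10 genes and, from each pathway list, the 3 genes with the smallest p in the F test of the co-culture change and the 3 with the smallest p in the F test over the 4 groups of the second table, among those with a mean of at least 5 CPM. Of the fibroblast list, DCN, LUM and PDGFRA did not exceed 1.64 CPM, PDGFRB ran from 2.32 to 13.3 CPM and COL1A1 from 3.21 to 10.6 CPM. The 8 genes most like HSPA5 were those with the highest value of the smaller of the Pearson correlations of log2 CPM (prior count 2) over the libraries of each table.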

Additional observations from a re-analysis of the deposited data

Results flagged for a closer look

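By the interaction F test, lineages 22, 35 and 45 differed in how co-culture and isolation compared (edgeR, adjusted p), in 7 of the 10 genes. The values were 7.775e-08 for DNAJB9, 7.702e-07 for HERPUD1, 8.405e-07 for ERN1, 6.29e-06 for SEL1L, 0.000106 for XBP1, 0.0007907 for HSPA5 and 0.04043 for PDIA4. The test passed in 55.2% of all genes, so differing changes were common in these libraries.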

How the results depend on the processing

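Of 200 results for a gene in a comparison 122 were called. Of these 96 kept call and direction under every alternative run, 10 lost the call only when a library was left out, 16 lost it under another setting, and none reversed. The cause of the losses was not tested. With only the groups compared in the fit, 22 against 45 from co-culture gave 0 of the 10 genes and 1805 genes in all (3 and 3669 reported), 35 against 45 from co-culture gave 1 (0 reported), as did DESeq2, and 13 against Pop gave 4 (7 reported). Leaving out single libraries gave 1 to 4 genes for lineage 45 from co-culture, 0 to 3 for 22 against 45 from co-culture and 5 to 8 for the change of 22 against 35.

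Reversals occurred only in differences that had not passed. They were -0.008705 (upper quartile) and -0.03775 (stricter filter) for SDF2L1 in lineage 22 from co-culture, -0.002986 (stricter filter) and -0.003054 (thinned) for CRELD2 in lineage 45, and -0.01117 (upper quartile) for HSP90B1 between isolated 35 and 45. SDF2L1 between 22 and 35 from co-culture gave 0.02465 (RLE), 0.04591 (upper quartile), 0.01373 (stricter filter), 0.006153 (only groups compared) and 0.02393 (DESeq2). SDF2L1 for 03 against 13 gave -0.01364 (upper quartile) and -0.004307 (thinned), and ERN1 for 10 against 13 gave -0.01813 (thinned).

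Leaving out single libraries, the log2 ranges that crossed 0 were -0.0645 to 0.1171 (SDF2L1, 22 from co-culture), -0.03987 to 0.09197 (HSPA5, 35 from co-culture), -0.05587 to 0.09888 (CRELD2, 45 from co-culture), and -0.01993 to 0.08432 (HSP90B1, isolated 35 against 45). Between 22 and 35 from co-culture they were -0.03048 to 0.1067 (HERPUD1), -0.08541 to 0.101 (SDF2L1) and -0.1232 to 0.1243 (SEL1L). Others were -0.00819 to 0.1408 (HSPA5, 22 against 45 from co-culture), -0.0007896 to 0.2101 (XBP1, 35 against 45 from co-culture), -0.1885 to 0.0001829 (HSP90B1, change of 22 against 35) and -0.1082 to 0.01149 (XBP1, change of 22 against 45). In the second table they were -0.08585 to 0.002543 (CRELD2, 03 against 10), -0.04466 to 0.132 (SDF2L1, 03 against 13), and for 10 against 13 -0.1376 to 0.0428 (HSP90B1) and -0.1286 to 0.1911 (ERN1).

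Replicate numbers did not pair the samples as a whole: only 22 and 45 from co-culture had every same-number correlation above 0.1 (0.36, 0.25 and 0.17). With the replicate number as a block, calls were lost for HSPA5 in the change of 35 against 45 (-0.31, adjusted p 0.0647) and for CRELD2 in 10 against Pop (-0.29, adjusted p 0.0671).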
